A study of Mus musculus with 8 samples.

Results

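Glycolysis and hypoxia response genes were followed in RNA from sorted mouse splenic follicular B cells. The set was 33 genes named by symbol, covering glucose and lactate carriers, the glycolytic enzymes, the oxygen-sensing machinery and targets of hypoxia-inducible factor (HIF), and all 33 were found among the 43629 Ensembl genes of the count table. There were 4 control libraries, whose genotype label is Rosa26GFPZFP36L1, and 4 libraries labelled Rosa26GFPZFP36L1 CD23cre/+, called GFP-ZFP36L1 here. Both groups therefore carried the Rosa26 allele for GFP-tagged ZFP36L1, and the second alone also had Cre recombinase expressed from the Cd23 gene, which is active in mature B cells, so effects of Cre and of the protein cannot be told apart. After enrichment of B cells with a kit, the sort took cells positive for CD23, CD21, CD93 and B220, per the labels. Age and sex are not in the labels, nor is it said that each library is its own animal, so a p-value here refers to the spread between libraries, which may be technical.

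Glycolysis splits glucose into pyruvate, spending ATP in a preparatory phase up to the triose phosphates and gaining ATP and NADH in a pay-off phase, and lactate dehydrogenase then regenerates NAD+ by turning pyruvate into lactate. HIF is a transcription factor whose alpha subunit is hydroxylated by EGLN enzymes when oxygen is present and then marked for destruction by the VHL ubiquitin ligase, so that low oxygen raises transcription of glucose transporters, glycolytic enzymes and mitophagy genes. Resting follicular B cells are metabolically quiet and increase glucose use when activated. ZFP36L1 attaches to AU-rich stretches in 3' UTRs and speeds the decay of the mRNA.

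Libraries held 38947758 to 51024233 counts, and a two-sided exact permutation test on the totals of 4 against 4 libraries gave p = 0.657. Zfp36l1 itself had 439 ± 28.6 CPM (counts per 1000000 counts, scaled by TMM factors) in the GFP-ZFP36L1 libraries and 547 ± 35.1 CPM in the controls (SD, n = 4 each). Its log2 fold change was -0.32 ± 0.069 (SE), in the direction against the label. Gt(ROSA)26Sor, the noncoding gene at the Rosa26 locus, had 3.91 ± 0.604 CPM against 16.9 ± 2.58 CPM in the controls. That was a log2 fold change of -2.11 ± 0.14 (SE), and its groups did not overlap. Every direction below refers to the library labels. Of the marker lists, the 13 B cell genes summed to 25050 to 26710 CPM in control libraries and 22050 to 24930 CPM in the GFP-ZFP36L1 libraries, with Pax5 and Ighd among those called as lower. Cd93, part of the gate as the labels give it, was at 8.40 to 14.6 CPM. For the other gate genes, Fcer2a (CD23) was at 1114 to 1555 CPM and Cr2 (CD21) at 1160 to 1447 CPM. Whether the sorted cells carried CD93 protein was not tested. Neutrophil genes summed to at most 0.0975 CPM, with Ltf, Retnlg and Elane at 0 counts, and erythroid genes to 2.64 to 13.7 CPM. On the first principal component of all tested genes (44.5% of the variance) replicate 1 of the GFP-ZFP36L1 group lay at -6.14, within the controls (-16.3 to -1.45), and GFP-ZFP36L1 replicate 4 lay farthest out at 22.9. In both groups the position rose with the number in each library's title. It was -16.3, -8.35, -4.31 and -1.45 in control replicates 1 to 4. In GFP-ZFP36L1 replicates 1 to 4 it was -6.14, 5.44, 8.25 and 22.9.

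Promoter windows of 3 members are shown because the first pair belongs to the members that fell and the third to a member that did not pass. Each runs from 250 bases before to 50 bases after the RefSeq transcription start (GRCm38.p6), 5' to 3' on the gene's strand, and capitals mark the core of the hypoxia response element, searched as ACGTG and GCGTG on both strands (CACGT and CACGC when on the other strand), where a palindromic CACGTG counts once on each strand.
Slc2a6, chr2:27027949-27028248, minus strand: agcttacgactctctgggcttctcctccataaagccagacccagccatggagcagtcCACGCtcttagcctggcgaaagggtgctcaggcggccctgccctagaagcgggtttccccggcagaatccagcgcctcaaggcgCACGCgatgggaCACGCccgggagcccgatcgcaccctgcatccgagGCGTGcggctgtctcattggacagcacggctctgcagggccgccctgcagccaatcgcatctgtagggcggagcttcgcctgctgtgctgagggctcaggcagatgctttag
Ankrd37, chr8:45999801-46000100, minus strand: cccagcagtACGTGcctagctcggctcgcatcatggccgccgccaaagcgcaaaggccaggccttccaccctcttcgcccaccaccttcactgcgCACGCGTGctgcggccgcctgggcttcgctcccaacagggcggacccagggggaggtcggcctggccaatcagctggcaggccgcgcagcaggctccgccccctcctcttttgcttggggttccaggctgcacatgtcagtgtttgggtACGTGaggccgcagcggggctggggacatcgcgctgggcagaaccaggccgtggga
Bnip3, chr7:138909457-138909756, minus strand: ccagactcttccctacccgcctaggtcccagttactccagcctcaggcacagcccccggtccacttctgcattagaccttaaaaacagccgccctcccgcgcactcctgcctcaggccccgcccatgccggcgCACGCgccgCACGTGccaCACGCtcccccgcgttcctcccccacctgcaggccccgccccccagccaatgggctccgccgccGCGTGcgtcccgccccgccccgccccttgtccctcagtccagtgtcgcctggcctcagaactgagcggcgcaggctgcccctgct
The windows held 4, 4 and 5 matches in that order. Of the 33 members, 31 had a RefSeq window under their symbol, all except Slc2a3 and Bnip3l, and 28 of the 31 (90.3%) had a core in at least 1 window, against 46.7% of 27025 genes with a window. Member windows also held more CpG, which both cores contain, with a median of 21 CpG against 7 in all windows, and the part of base composition in that difference was not tested.

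The heptamer UAUUUAU, the core site of the ZFP36 family, was searched as TATTTAT in the longest annotated 3' UTR (GENCODE release M21, GRCm38). It was present in 14 of the 33 members: Slc2a1, Slc2a3, Hk2, Pfkm, Pfkp, Pfkfb3, Pgk1, Pdk1, Slc16a3, Hif1a, Egln3, Vhl, P4ha1 and Vegfa. The sites below, on the sense strand with the heptamers in capitals, come from the transcription factor Hif1a, the kinase-phosphatase gene Pfkfb3, the glucose transporter Slc2a3 and the angiogenic growth factor Vegfa, and are shown because the protein under study binds such elements.
Hif1a, heptamer at chr12:73946016-73946022: tgcaccttttTATTTATTTATttttgg
Pfkfb3, heptamer at chr2:11472059-11472065: gcagatgtgcTATTTATTTATttaata
Slc2a3, heptamer at chr6:122729473-122729479: acttgagtttTATTTATtttatcttca
Vegfa, heptamer at chr17:46017177-46017183: tgttatcattTATTTATtggtgctact
In Hif1a and Pfkfb3 a pair of heptamers overlaps to form 1 longer AU-rich run. Hif1a and Vegfa had 3 heptamers each, and Slc2a6 and Ankrd37, the members that fell, had 0. Among tested genes with a 3' UTR, 29.7% of 10961 held a heptamer, and among tested members 12 of 31 (38.7%). The median log2 fold change, GFP-ZFP36L1 over control, was 0.035 in those 12 and -0.060 in the other 19, against 0.0053 and -0.0057 with and without a heptamer over all tested genes.

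Of the 33 members, 31 had enough counts to be tested, and 2 fell in the GFP-ZFP36L1 libraries while 0 rose. They were Slc2a6, a hexose transporter found on lysosomal membranes, and Ankrd37, a small ankyrin repeat protein gene that is a HIF target. Calls are an adjusted p under 0.05 in the quasi-likelihood test of edgeR, adjusted by Benjamini-Hochberg over all 13035 tested genes, of which 3.12% were called, 1.30% as lower and 1.83% as higher. DESeq2 called the same 2 members and limma voom called 4, all lower, where they called 6.89% and 8.08% of all genes. A fit with the number in each library's title as a linear term called the same 2 where 7.90% of all genes were called. An unadjusted p under 0.05 was reached by 9 members (17.3% of all genes), 7 of them lower (7.87%). Of the 31 log2 fold changes 17 were negative and 14 positive, with a median of -0.028 against -0.0067 over all tested genes, and with library totals in place of TMM factors 13 were negative. Groups without overlap were seen in 4 of the 31 (12.9%), against 11.2% of all tested genes, with 3 lower (4.98%) and 1 higher (6.24%). The share of members called, 6.45%, rests on 2 genes.

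**Figure D1:**
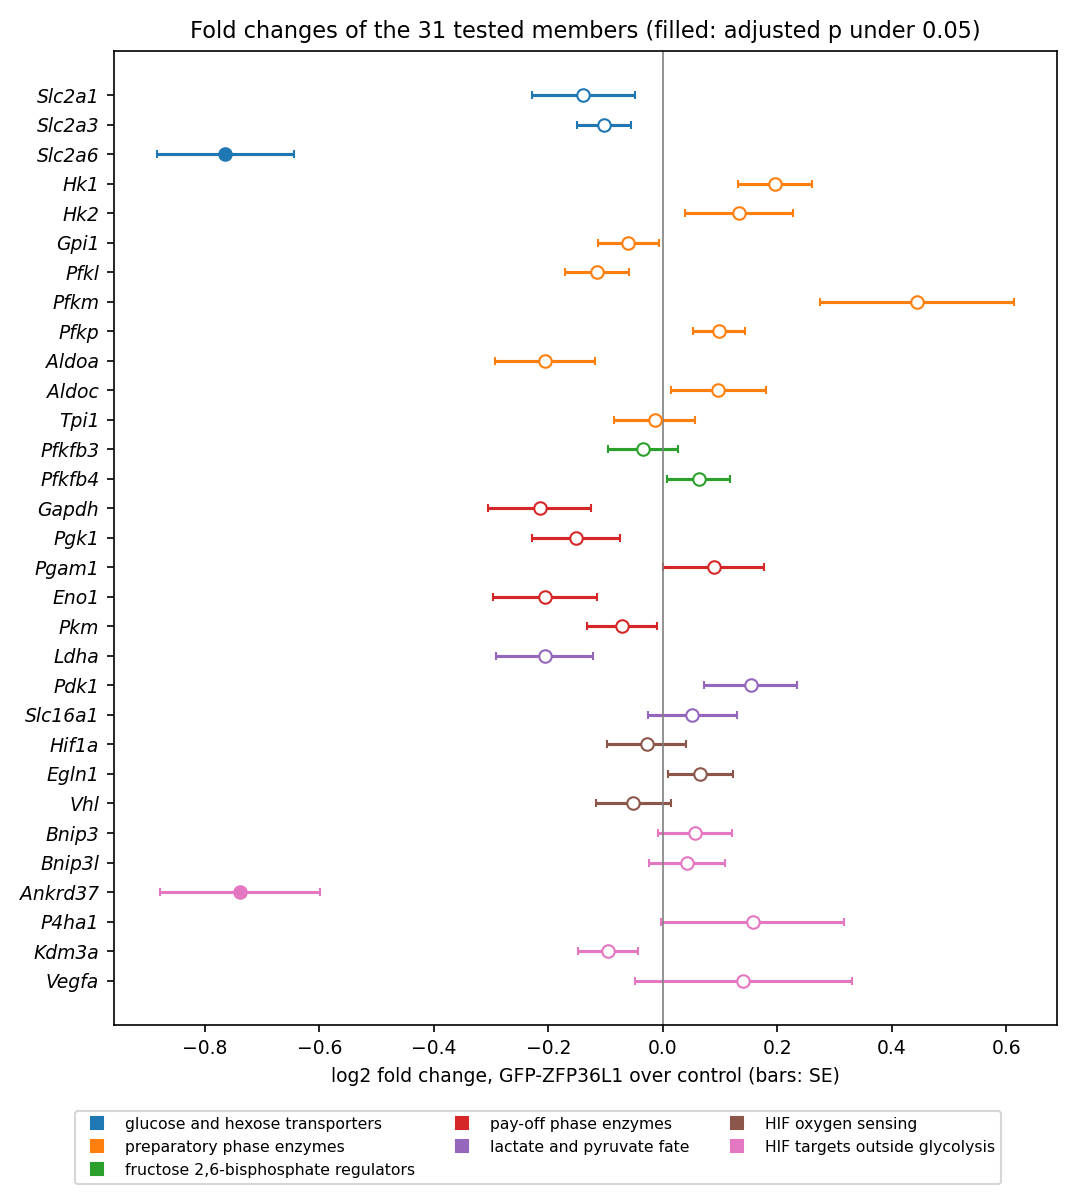
Log2 fold changes of the 31 tested members, GFP-ZFP36L1 over control, with the gene on the vertical axis, bars for 1 standard error and colours for the role in the pathway. Filled points passed the test: Slc2a6 at -0.76 and Ankrd37 at -0.74 stand apart from the other 29, which lie between -0.22 and 0.44.

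Among the transporters, Slc2a6 (chromosome 2, 27021363 to 27027998, minus strand) had 13.9, 14.4, 16.1 and 13.5 CPM in control replicates 1 to 4 and 9.72, 9.24, 8.79 and 6.31 CPM in GFP-ZFP36L1 replicates 1 to 4. Every GFP-ZFP36L1 library lay below every control, and replicate 4 was the lowest. Its mean fell from 14.5 ± 1.14 to 8.51 ± 1.52 CPM (SD, n = 4 each), a log2 fold change of -0.76 ± 0.12 (SE) and a control level 1.70 times that of the labelled libraries, with an adjusted p of 0.00958 in the edgeR test. It stayed called under all 17 alternatives, at log2 fold changes from -0.83 to -0.64 and adjusted p of at most 0.046. Without GFP-ZFP36L1 replicate 4 the log2 fold change was -0.64 ± 0.087 (SE). In bulk RNA, fewer cells with the transcript and less transcript per cell cannot be told apart. Cacfd1, whose gene ends 274 bp from Slc2a6, had 47.9 CPM against 48.2 CPM in control libraries and a log2 fold change of -0.0087 ± 0.045 (SE).

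Slc2a1 encodes GLUT1, the widely expressed basal glucose transporter, and Slc2a3 encodes GLUT3, a high-affinity transporter. Slc2a1 had 63.4, 68.8, 55.5 and 58.4 CPM in control libraries and 60.1, 55.9, 61.0 and 46.5 CPM in the GFP-ZFP36L1 libraries, which overlapped. Slc2a3 had 60.2, 63.2, 61.7 and 61.1 CPM in control libraries and 58.9, 59.4, 56.1 and 54.9 CPM in the GFP-ZFP36L1 libraries. The groups of Slc2a3 did not overlap, but the difference was small, at a log2 fold change of -0.10 ± 0.047 (SE), and did not pass (adjusted p = 0.286 in the edgeR test), while Slc2a1 had -0.14 ± 0.090, or -0.056 ± 0.073 without GFP-ZFP36L1 replicate 4. Whether the change of Slc2a6 differs from those of Slc2a1 and Slc2a3 was not tested. Per length of the annotated exons, the order of levels in the controls was Slc2a1 at 17.5 ± 1.66, Slc2a3 at 8.50 ± 0.175 and Slc2a6 at 4.51 ± 0.356 RPKM (CPM per kilobase, SD, n = 4), an order that also held with the longest and with the principal transcript as length. Slc2a6 made up 14.8 ± 1.5% of the summed level of these 3 transporters in the controls and 9.94 ± 0.97% in the GFP-ZFP36L1 libraries.

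**Figure D2:**
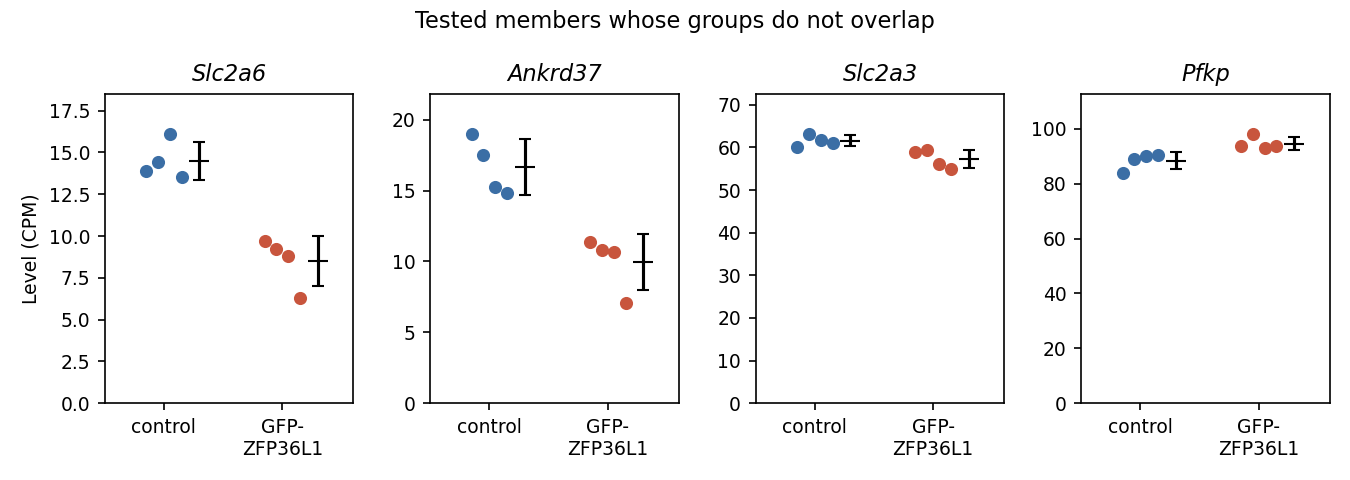
Levels in CPM of the 4 tested members whose groups do not overlap, with a point for each library, left for control and right for GFP-ZFP36L1, and the mean ± SD of 4 libraries beside the points. Slc2a6 and Ankrd37 are lower by more than the spread within groups, whereas Slc2a3 is lower and Pfkp higher by a margin close to that spread.

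In the preparatory phase, 0 of 9 enzymes passed the edgeR test or DESeq2, 3 had an unadjusted p under 0.05 and limma voom called 1, Aldoa. Over all tested genes 17.3% had an unadjusted p under 0.05 and limma voom called 8.08%. Hexokinases trap glucose as glucose 6-phosphate, and Hk1 had 64.6, 66.1, 72.8 and 68.5 CPM in control libraries and 84.0, 74.5, 70.4 and 82.5 CPM in the GFP-ZFP36L1 libraries, a log2 fold change of 0.20 ± 0.065 (SE, adjusted p = 0.132 in the edgeR test). GFP-ZFP36L1 replicates 1, 2 and 4 lay above every control and replicate 3 did not. Hk2, the inducible hexokinase, had a log2 fold change of 0.13 ± 0.094 (SE), or 0.045 ± 0.079 without GFP-ZFP36L1 replicate 4, and was the minor form: Hk1 made up 83.5 ± 0.70% of their summed level per length in the controls and 84.1 ± 1.4% in the GFP-ZFP36L1 libraries. Phosphofructokinase, the committing step, was carried by the liver-type gene Pfkl and the platelet-type gene Pfkp, with the muscle-type gene Pfkm at 5.11 ± 0.54% of the family in the controls. Pfkl had 11.6 ± 0.322 and Pfkp 6.60 ± 0.228 RPKM in the controls by exon length, but 20.8 and 21.3 RPKM by the length of the principal transcript, so their order depends on the length used. The log2 fold change of Pfkl was -0.12 ± 0.056 (SE), of the opposite sign to those of Pfkm and Pfkp, and none of the family was called. Pfkp had 83.9 to 90.5 CPM in control libraries and 93.0 to 98.2 CPM in the GFP-ZFP36L1 libraries, which did not overlap, at a log2 fold change of 0.098 ± 0.046 (SE, adjusted p = 0.293 in the edgeR test). Pfkp shares 748 bp of exon with Pitrm1 on the other strand. Pfkm had the largest positive value of the members with all libraries, 0.44 ± 0.17 (SE), with 6.04 CPM in GFP-ZFP36L1 replicate 4 and 2.91 to 4.47 CPM in the other 7 libraries, and did not pass (adjusted p = 0.204 in the edgeR test). Without that library it was 0.28 ± 0.14 (SE), below P4ha1 at 0.31 ± 0.099.

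Aldolase, which cleaves fructose 1,6-bisphosphate, was almost all Aldoa, at 97.4 ± 0.083% of the summed level of Aldoa and Aldoc per length in the controls and 96.8 ± 0.29% in the GFP-ZFP36L1 libraries. The minor form Aldoc had a log2 fold change of 0.097 ± 0.083 (SE), or 0.16 ± 0.079 without GFP-ZFP36L1 replicate 4, and did not pass. Aldoa had 357, 326, 327 and 306 CPM in control libraries and 339, 274, 275 and 253 CPM in the GFP-ZFP36L1 libraries. GFP-ZFP36L1 replicate 1 lay among the controls and replicates 2 to 4 below them. The log2 fold change was -0.21 ± 0.087 (SE, adjusted p = 0.240 in the edgeR test). Gpi1, the phosphoglucose isomerase, and Tpi1, the triosephosphate isomerase, had log2 fold changes of -0.060 ± 0.053 and -0.014 ± 0.070 (SE), and the sign for Tpi1 turned under 5 alternatives. Pfkfb3 and Pfkfb4, which make and break the activator of phosphofructokinase, had -0.035 ± 0.061 and 0.063 ± 0.055 (SE). Neither passed the edgeR test, DESeq2 or limma voom, and 0 of the pair had an unadjusted p under 0.05.

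In the pay-off phase, 0 of 5 enzymes passed the edgeR test, DESeq2 or limma voom, and 2 had an unadjusted p under 0.05 (17.3% of all genes). Eno1, the main enolase, had 300.0, 266, 260 and 254 CPM in control libraries and 276, 236, 221 and 202 CPM in the GFP-ZFP36L1 libraries. Pkm, pyruvate kinase, had 309, 305, 297 and 291 CPM in control libraries and 317, 276, 275 and 276 CPM in the GFP-ZFP36L1 libraries. Ldha, the lactate dehydrogenase A chain, had 199, 183, 180 and 167 CPM in control libraries and 188, 147, 147 and 150 CPM in the GFP-ZFP36L1 libraries. In each of these genes GFP-ZFP36L1 replicate 1 lay within or above the controls and replicates 2 to 4 below every control. The log2 fold changes were -0.21 ± 0.091 for Eno1, -0.071 ± 0.061 for Pkm and -0.21 ± 0.085 (SE) for Ldha, with adjusted p of 0.267, 0.602 and 0.228 in the edgeR test. Gapdh had -0.22 ± 0.090, Pgk1, the phosphoglycerate kinase, -0.15 ± 0.077, and Pgam1, the phosphoglycerate mutase, 0.089 ± 0.088 (SE), the last with 33.4 CPM in GFP-ZFP36L1 replicate 1 and 24.5 to 27.3 CPM in the other 7 libraries. Without that library Pgam1 was at -0.0064 ± 0.060, Pkm at -0.12 ± 0.049 and Pgk1 at -0.23 ± 0.055 (SE). Without GFP-ZFP36L1 replicate 4 Eno1 was at -0.14 ± 0.082.

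Without GFP-ZFP36L1 replicate 1, 6 members were called as lower: Aldoa, Pgk1, Eno1 and Ldha beside Slc2a6 and Ankrd37, where 7.19% of all genes were called. The log2 fold change of Ldha was then -0.29 ± 0.059 (SE, adjusted p = 0.0173) and that of Aldoa -0.29 ± 0.063 (adjusted p = 0.0221) in the edgeR test. With any of the other libraries left out in turn these 4 enzymes were not called. The summed level of Gapdh, Pgk1, Pgam1, Eno1, Pkm and Ldha was 955, 895, 869 and 845 CPM in control replicates 1 to 4 and 932, 785, 764 and 743 CPM in GFP-ZFP36L1 replicates 1 to 4. The same replicate lay within the controls on the first principal component, and the part of that in these values was not tested. In GFP-ZFP36L1 replicate 1 Zfp36l1 was at 471 CPM, the highest of its group, with 447, 437 and 402 CPM in replicates 2 to 4. Gt(ROSA)26Sor was at 3.66 CPM in replicate 1 and at 4.456, 4.335 and 3.167 CPM in replicates 2 to 4. For both genes all of these values lay below every control.

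**Figure D3:**
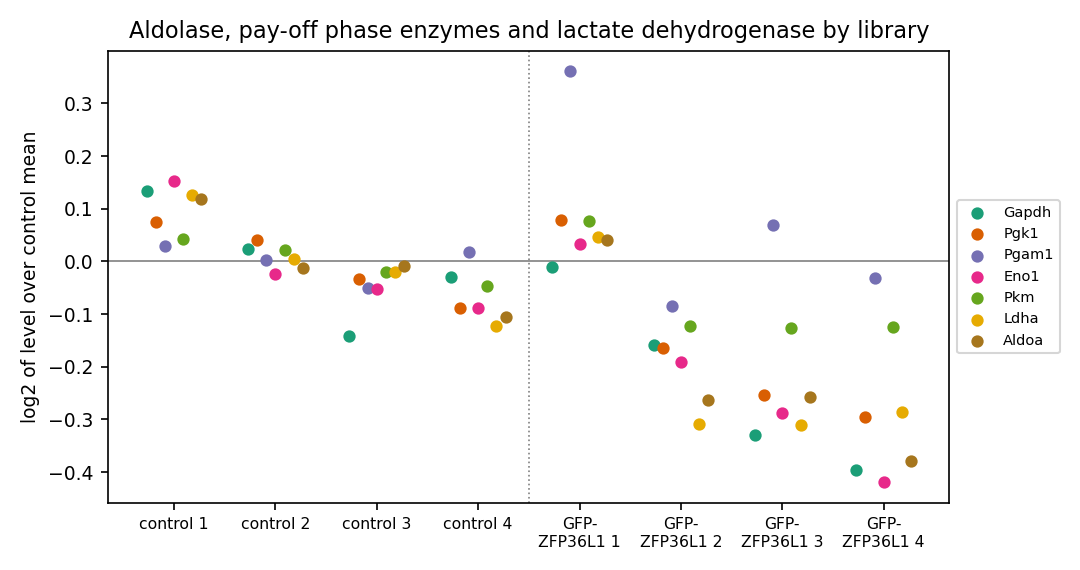
Level of aldolase A, the 5 pay-off phase enzymes and lactate dehydrogenase A in each library, as log2 of the level over the control mean, with colours for genes and the dotted line between the groups. GFP-ZFP36L1 replicate 1 sits among the controls for 4 of the 7 genes, with Pgam1, Pkm and, narrowly, Pgk1 above them, and in replicates 2 to 4 every gene other than Pgam1 lies below 0.

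Read sharing with copies limits the levels of several of these enzymes. Words of 50 bases from the principal transcript also occurred in transcripts of other genes for 82.5% of Gapdh, with 215 of those genes annotated as pseudogenes, 72.2% of Eno1, 68.0% of Pgk1, 62.4% of Bnip3, 41.5% of Pgam1 and 34.4% of Pkm. The share was 17.1% for Ldha, 13.9% for Aldoa, 11.4% for Ankrd37, with 2 other genes, 0 of them pseudogenes, and 0% for Slc2a6. Both strands of each transcript were searched, so the share also counts genes that overlap on the other strand and are not copies. Gapdh, often used as a reference gene, had 25.3 ± 2.01 CPM in control libraries and 6.12 ± 0.486 RPKM by exon length or 17.8 RPKM by the principal transcript, below Aldoa at 113 ± 7.25 and 218 RPKM. The sources used here do not say how reads that match several places were counted, so levels of genes with a high share are uncertain, and the part of copies in them was not tested. Among enzymes with a share under 20%, Aldoa had the highest level in the controls, and Ldha followed at 55.1 ± 3.94 RPKM.

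**Figure D4:**
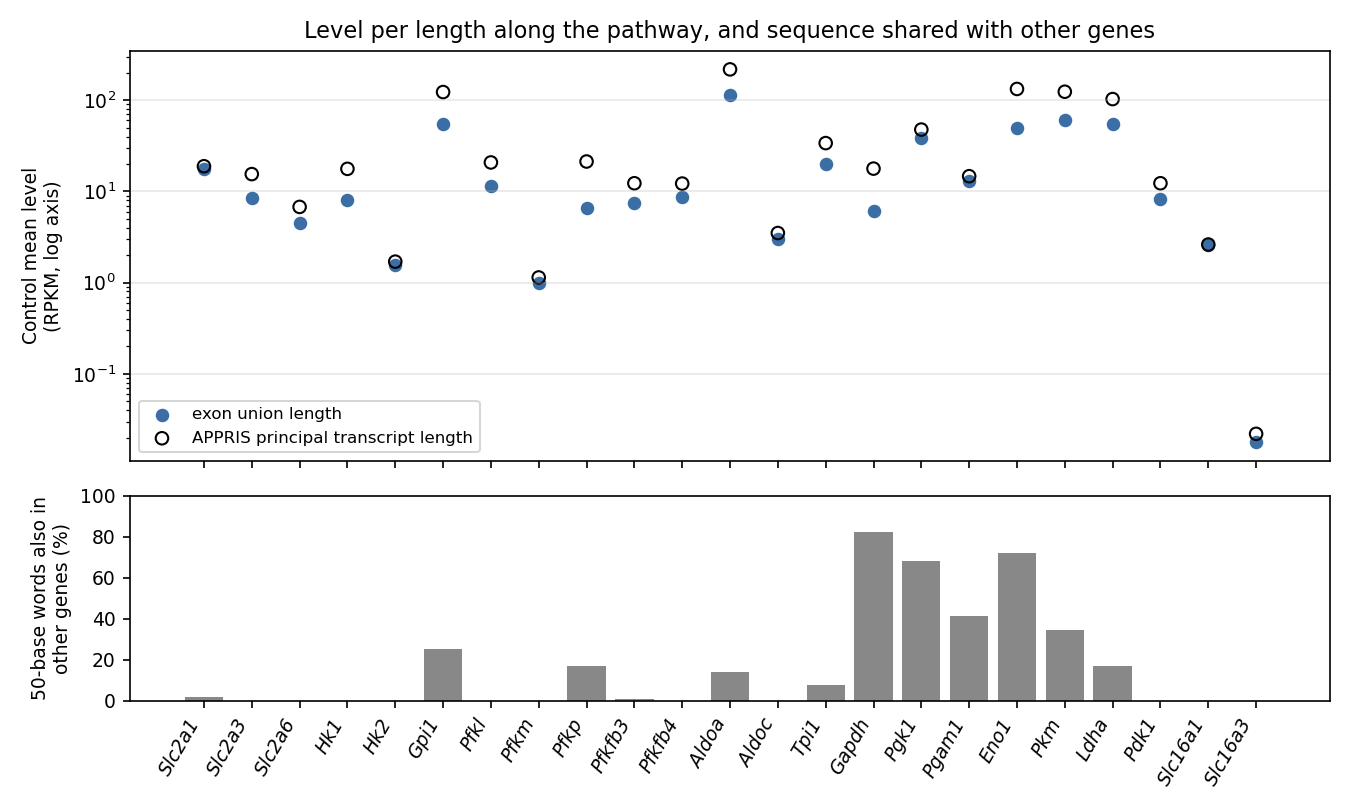
Upper panel, mean level of the carriers and enzymes in the 4 control libraries in RPKM on a log axis, by the length of all annotated exons (filled) or of the principal transcript (open). Lower panel, the share of 50-base words of the principal transcript also found in other genes, in percent, which reaches 82.5% in Gapdh, whose level lies below those of Aldoa, Eno1, Pkm and Ldha.

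Genes that decide the fate of pyruvate and lactate did not pass, and 0 of the 3 tested were called in the edgeR test or DESeq2, with 1, Ldha, by limma voom and at an unadjusted p under 0.05. The shares over all genes were 8.08% by limma voom and 17.3% by the unadjusted p. Pdk1 encodes a kinase that inhibits pyruvate dehydrogenase. Its level was 58.3, 60.5, 69.6 and 67.5 CPM in control libraries and 62.8, 68.7, 72.3 and 81.0 CPM in the GFP-ZFP36L1 libraries, which overlapped. The log2 fold change of Pdk1 was 0.15 ± 0.081 (SE), or 0.092 ± 0.072 without GFP-ZFP36L1 replicate 4. Slc16a1, the monocarboxylate carrier MCT1, ran from 10.8 to 12.1 CPM in control libraries and from 11.4 to 13.3 CPM in the GFP-ZFP36L1 libraries. Slc16a3, the lactate exporter MCT4 of strongly glycolytic cells, had too few counts for a test, with 0, 1, 9 and 6 counts in the controls and 1, 9, 8 and 6 in the GFP-ZFP36L1 libraries. A count of 0 in control replicate 1 allows a level of up to 0.072 CPM, the limit of 3 counts, for counting error only. Nearly all monocarboxylate carrier message among these members was thus Slc16a1.

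Of the oxygen-sensing genes, 0 of the 3 tested passed the edgeR test, DESeq2 or limma voom, and 0 had an unadjusted p under 0.05. Hif1a, the inducible alpha subunit, had 119, 135, 139 and 130 CPM in control libraries and 131, 143, 119 and 121 CPM in the GFP-ZFP36L1 libraries. The groups overlapped over nearly their whole range, with a log2 fold change of -0.028 ± 0.069 (SE). Egln1, the main oxygen-sensing prolyl hydroxylase, ran from 30.9 to 32.7 CPM in control libraries and from 31.5 to 35.7 CPM in the GFP-ZFP36L1 libraries, and Vhl had 32.5 ± 1.63 and 31.4 ± 2.27 CPM. Egln3, a hydroxylase gene that HIF itself induces, had 2 to 11 counts per library and was not tested. By exon length Egln1 had 8.78 ± 0.222 RPKM in the controls and Egln3 0.040 ± 0.019 RPKM.

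Of the 6 HIF targets outside glycolysis, 1 fell and 5 did not pass. Ankrd37 (chromosome 8, 45996902 to 46005707, minus strand) had 19.0, 17.5, 15.2 and 14.9 CPM in control libraries and 11.4, 10.8, 10.7 and 7.04 CPM in the GFP-ZFP36L1 libraries. As with Slc2a6, every GFP-ZFP36L1 library lay below every control and replicate 4 was the lowest. Within both groups the level of Ankrd37 fell as the title number rose. Its mean fell from 16.7 ± 1.96 to 9.98 ± 1.98 CPM (SD, n = 4 each), a log2 fold change of -0.74 ± 0.14 (SE) and a control level 1.67 times that of the labelled libraries, with an adjusted p of 0.0209 in the edgeR test. The call was lost without control replicate 2 (adjusted p = 0.0719), control replicate 3 (0.0561) or GFP-ZFP36L1 replicate 3 (0.0585) in the same test, at log2 fold changes of -0.71, -0.78 and -0.77. Without GFP-ZFP36L1 replicate 4 it held at -0.60 ± 0.096 (SE). Ankrd37 shares 57 bp of exon with Ufsp2 and 349 bp with Lrp2bp on the other strand, and although the library kit keeps strand, no source used here says whether the counting did, so reads of these genes cannot be told apart there. Ufsp2 had 27.4 CPM in control libraries and 24.2 CPM in the GFP-ZFP36L1 libraries, a log2 fold change of -0.18 ± 0.058 (SE, adjusted p = 0.126 in the edgeR test), and Lrp2bp had 54 counts in all 8 libraries together against 4686 for Ankrd37.

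The other 5 HIF targets had log2 fold changes from -0.096 to 0.16, and did not pass with any library left out. Bnip3 and Bnip3l, receptors that mark mitochondria for autophagy, had 0.057 ± 0.065 and 0.042 ± 0.067 (SE), or 0.094 ± 0.068 and 0.099 ± 0.060 without GFP-ZFP36L1 replicate 4. Bnip3l is also a gene of maturing red cells, and erythroid markers summed to 2.64 to 13.7 CPM in control libraries and 3.87 to 8.87 CPM in the GFP-ZFP36L1 libraries, with Bnip3l at 111 to 137 CPM. P4ha1, a collagen prolyl hydroxylase subunit, had 28.2, 24.8, 20.4 and 21.9 CPM in control libraries and 30.4, 30.6, 27.3 and 18.0 CPM in the GFP-ZFP36L1 libraries. In P4ha1 GFP-ZFP36L1 replicate 4 lay below every control and replicates 1 and 2 above them. Its log2 fold change was 0.16 ± 0.16 with that replicate and 0.31 ± 0.099 (SE) without it. Kdm3a, a histone H3 lysine 9 demethylase, had -0.096 ± 0.053 (SE), and Vegfa, which is low in B cells here, had 0.768 ± 0.0959 CPM in control libraries and 0.846 ± 0.105 CPM in the GFP-ZFP36L1 libraries.

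The authors' deposited table, made with DESeq2, called 6.63% of 13191 genes at an adjusted p under 0.05, and Slc2a6 and Ankrd37 were the members among them. In the authors' deposited table their log2 fold changes were -0.59 and -0.53, with adjusted p of 6.16e-07 and 3.91e-05. For Ldha, Aldoa and Eno1 the authors' deposited table gave -0.18, -0.18 and -0.17, with adjusted p of 0.201, 0.20 and 0.239.

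Other genes of the pathway came from 7 lists, with 137 genes of which 103 were tested. Of these 1 rose and 0 fell in the edgeR test (0.971%, where 3.12% of all genes were called), and 19 reached an unadjusted p under 0.05 (18.4%, where 17.3% of all genes did). DESeq2 called 6 and limma voom 11, where they called 6.89% and 8.08% of all genes, and the median log2 fold change was -0.025. The gene that rose was Gbe1, the glycogen branching enzyme and a HIF target, with 15.7, 19.8, 16.2 and 18.0 CPM in control libraries and 22.0, 21.8, 21.6 and 24.1 CPM in the GFP-ZFP36L1 libraries. Every GFP-ZFP36L1 library lay above every control. The log2 fold change was 0.36 ± 0.081 (SE, adjusted p = 0.0391 in the edgeR test). The call was lost without any 1 of control replicates 1, 3 and 4 or GFP-ZFP36L1 replicates 2, 3 and 4, where the adjusted p ran from 0.0784 to 0.132 and the log2 fold change from 0.31 to 0.38. Of 28 tested genes in the list of other HIF targets 10 had a positive and 18 a negative log2 fold change, and of the 7 with an unadjusted p under 0.05 there were 5 higher and 2 lower. Groups without overlap were 6 higher and 2 lower (28.6%, where 11.2% of all genes had none). This was the highest share of the 7 lists. It was 0% to 23.1% in the others and 14.6% over all 103 tested related genes. DESeq2 called 3 of this list, Gbe1 and Adm as higher and Wsb1 as lower. For limma voom there were 5, these and Plod1 as higher and Ddit4 as lower. Adm, the vasodilator peptide adrenomedullin, was at 0.676 ± 0.0539 CPM in control libraries and 1.23 ± 0.398 CPM in GFP-ZFP36L1 libraries. Its log2 fold change was 0.86 ± 0.24 (SE, adjusted p = 0.0792 in the edgeR test), and it was chosen after its values were seen.

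In the other 6 lists the edgeR test called 0 genes, where 3.12% of all genes were called. For the counts below, 17.3% of all genes had an unadjusted p under 0.05. DESeq2 called 6.89% of all genes and limma voom 8.08%. Among 12 tested isoforms and side enzymes of glycolysis, Adpgk, an ADP-dependent glucokinase, had the smallest p, at 56.6 ± 2.70 CPM against 65.3 ± 2.31 CPM in the controls (log2 fold change -0.21 ± 0.051, SE, adjusted p = 0.0543). It was called by DESeq2 and limma voom and was the 1 gene of the list at an unadjusted p under 0.05. In the pentose phosphate list, which supplies NADPH and ribose, an unadjusted p under 0.05 was found for 3 of 10, with 0 called by DESeq2 and 2 by limma voom: Prps1, which makes phosphoribosyl pyrophosphate, at -0.21 ± 0.063, and H6pd, the glucose 6-phosphate dehydrogenase of the endoplasmic reticulum, at 0.27 ± 0.086 (SE). Of 13 genes for the entry of pyruvate into mitochondria, 3 reached an unadjusted p under 0.05, and 1 was called by both DESeq2 and limma voom, Pdhb, a subunit of pyruvate dehydrogenase, at 63.5 ± 4.40 CPM against 74.3 ± 3.19 CPM in the controls (-0.23 ± 0.058, SE). Of 8 tested sugar and monocarboxylate carriers, 2 reached an unadjusted p under 0.05, and 1 was called by both DESeq2 and limma voom, Slc16a10, an aromatic amino acid carrier, at -0.46 ± 0.15 (SE). Of 18 tested genes of the HIF machinery, 2 reached an unadjusted p under 0.05, with 0 called by DESeq2 and 1 by limma voom, Epas1, the HIF-2 alpha subunit, at 0.452 ± 0.125 CPM against 0.233 ± 0.0599 CPM in the controls. Of 15 tested MYC, MONDO and mTOR regulators, DESeq2 and limma voom called 0 and 1 had an unadjusted p under 0.05, Myc, at 40.0 ± 5.65 CPM against 48.3 ± 6.12 CPM in the controls.

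Markers of cell state are given beside these values. B cell activation markers summed to 622 to 647 CPM in control libraries and 526 to 583 CPM in the GFP-ZFP36L1 libraries. Of 11 tested, 1 was called in the edgeR test, where 3.12% of all genes were called. That gene, Cd83, the most abundant of the list, fell by 0.37 ± 0.075 (SE) on the log2 scale. Proliferation markers summed to 16.5 to 17.3 CPM in control libraries and 13.7 to 16.5 CPM in the GFP-ZFP36L1 libraries, with 0 of 9 tested genes called in the edgeR test. Macrophage and monocyte markers summed to 10.5 to 11.1 CPM and 7.92 to 9.48 CPM in the same order, with 0 of 6 tested called and Adgre1 at 2.66 to 3.78 and 0.926 to 2.33 CPM, and plasma cell markers to 471 to 502 CPM and 503 to 547 CPM, with 0 of 6 called. The part of any of these in the levels of Slc2a6 and Ankrd37 was not tested.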

How the data were processed

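RNA-seq of follicular B cells sorted from mouse spleen gave 8 libraries made with a stranded mRNA kit, per the labels. The submitters' processing notes name build GRCm38, TopHat2 2.0.12, Trim Galore, DESeq2 1.10.1 and HTSeq. Settings are not given in the sources used here. Raw counts per Ensembl gene, as deposited, entered every test. The authors' deposited comparison table gives log2 fold changes and p-values per gene, and a table of values divided by 1 factor per library was not used. All 8 count columns were matched to libraries by title, 0 stayed unmapped, and 0 rows named no gene. Replicates were numbered in accession order.

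Symbols came from GENCODE M21 or a list of gene names, for 42548 of 43629 identifiers. Counts were fitted in R 4.3.3 with edgeR 4.0.16 (filterByExpr, TMM factors, quasi-likelihood test with robust dispersion, group as the sole term), with Benjamini-Hochberg adjustment over 13035 genes and a threshold of 0.05. Standard errors came from the F statistic. On simulated data, 71.0% of genes changed by 0.5 and 92.9% of those changed by 1 on the log2 scale were called among 12919 genes tested, and 0.0865% of the unchanged ones. The simulation drew each gene on its own, without differences shared by the genes of a library. The libraries here differ in such a way, so these shares may not hold for them. Alternatives were DESeq2 1.42.0, limma 3.58.1 (voom, quality weights), factors by RLE or upper quartile, library totals, other filters (none, or 1 CPM in 4 libraries), no robust prior, a linear term for the title number, and leaving out each library. The principal transcript (APPRIS tag) as length was added after seeing the data.

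The members, lists and sequences shown were chosen with earlier results of these data known. All members are named, and of each list the called genes or those with the smallest p.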

Additional observations from a re-analysis of the deposited data

Results flagged for a closer look

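Of 66 sets of 4 libraries, from 33 members in 2 groups, 6 held a library whose gap to the nearest other exceeded Dixon's critical share of the range, and chance flags about 1 in 20. All 6 were in the GFP-ZFP36L1 group. Replicate 1 stood high for Pkm, at 317 CPM where the others had 275 to 276, and for Ldha, at 188 CPM where the others had 147 to 150. Replicate 4 stood high for Hk2, at 12.3 CPM against 9.57 to 9.79, and for Pfkfb3, at 61.7 CPM against 53.6 to 53.9, and low for Ankrd37, at 7.04 CPM against 10.7 to 11.4. Replicate 2 stood high for Pfkp, at 98.2 CPM against 93.0 to 93.8.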

How the results depend on the processing

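The count of called genes, 407, was 882 with DESeq2, 1053 with limma voom and 1030 with a linear term for the title number, and 79 to 948 with 1 library left out. Members called, 2, were 4 with limma voom and 1 to 6 with 1 library left out. Related genes called, 1, were 6 with DESeq2, 11 with limma voom, 2 with no filter, 10 with a linear term for the title number and 0 to 7 with 1 library left out. The cause of these differences was not tested. Of 526 member values under 17 alternatives, 505 kept their direction and side of the threshold, 6 passed it, 3 (all Ankrd37) lost it and 12, in 5 uncalled members, changed sign. With library totals Pfkfb3 was at 0.025, Tpi1 at 0.044, Hif1a at 0.029 and Vhl at 0.0059. Tpi1 was at 0.00094 with upper-quartile factors and 0.011 with the title number. With 1 library left out Tpi1 ran from -0.063 to 0.032, Pgam1 from -0.0064 to 0.143 and Hif1a from -0.084 to 0.0080.

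No paired fit was made, since the labels give the groups no shared replicate number and no label says that neighbouring title numbers mark pairs. The title number was fitted as a linear term instead, as above.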
